A study of Mus musculus with 36 samples.

Results

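Most nucleotides listed in these SSB and AP site profiles carry a count of 1, and the positions described here are the few that carry more. A position was taken when it lay on an autosome, had a count of 2 or more in a library, and was found in only 1 or 2 of the 12 libraries of its assay. This gave 30200 entries at 30188 nucleotides among 5518789 SSB entries, and 37310 entries at 37291 nucleotides among 8824020 AP entries. Only 9 nucleotides were chosen in both assays. The positions were chosen by their count, so their counts and their share of a library are given as a description, without a test. What was tested is where they lay and which other positions were near them, always against the positions with a count of 1 of the same library, which were also autosomal and in 1 or 2 libraries.

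An SSB is a break in 1 of the DNA strands, and an AP site is a sugar of the backbone that has lost its base. Both arise from oxidation, from hydrolysis and from base excision repair, in which a glycosylase removes a damaged base and an endonuclease then cuts the backbone, and topoisomerases open strands during transcription and replication. SSiNGLe maps a break to the nucleotide at its 3′ end, and SSiNGLe-AP applies the same principle to AP sites. The count is taken here as the number of sequenced reads or molecules assigned to a nucleotide and strand, but the sources used here do not define it and do not say how duplicate reads were handled, so breaks in different cells and copies of a molecule cannot be told apart.

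The labels name 2 male C57BL/6J mice, 24 months old, as the source of all tissues, with no treatment or genetic change given in the labels. Bone marrow (red cells lysed), brain, heart, liver, PBMCs (mononuclear blood cells from a Ficoll gradient) and motile sperm from the epididymal tail were each profiled with both assays on the DNA of the same tissue sample, so that each assay has 12 libraries and each tissue 2. Sperm DNA was isolated with another kit than the DNA of the other tissues, so that kit and sperm cannot be told apart. Whole organs were ground, so each library mixes the cell types of its tissue, and DNA profiles of this kind hold no marker genes against which the tissue label could be checked. The SSB libraries held 225011 to 1041983 positions and the AP libraries 460719 to 963258. The labels do not say whether a replicate number marks the same mouse in every tissue, and the tests over 12 libraries treat the tissues of a mouse as separate samples.

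The nucleotides next to the chosen positions are shown first, for the positions of highest count that lay before the start of a protein-coding gene in the promoter table. They are shown because some bases passed a test against positions with a count of 1. These were the base at the position for SSBs only, and the base 2 before it for AP sites only. Each line holds 30 reference bases on the strand given for the position (RefSeq, GRCm38.p6). The last capital is the listed nucleotide and the other capitals are the 3 bases before it. The SSB position at Tmem260 had a count of 4 in heart replicate 2, and those at Dohh, Kif1c, Eif4a1 and Ranbp3l had a count of 3 in the same library. The AP position at Arhgef10l had a count of 3 in heart replicate 2, and those at Gm2427, Rgs4, H4c3 and Cenpk had a count of 2 in bone marrow replicate 1, PBMC replicate 2, brain replicate 2 and sperm replicate 1.
Tmem260, SSB, chr14:48446305-48446334, plus strand: catctcctcctcCCCGacctggcgggcgaa
Dohh, SSB, chr10:81384237-81384266, minus strand: attcacagcacaACCGggccggccgtgcat
Kif1c, SSB, chr11:70700405-70700434, plus strand: taactagagtgaCCCGggtggctccttccc
Eif4a1, SSB, chr11:69672465-69672494, plus strand: gggtagtttgaaAGCCcatcatggcctagc
Ranbp3l, SSB, chr15:8967884-8967913, plus strand: gctaatcagctaGCCCagtctcctcccctc
Arhgef10l, AP, chr4:140666018-140666047, plus strand: actggagggggcCCTGgcctctaccaccag
Gm2427, AP, chr1:85496213-85496242, plus strand: aacctatgtacaCCCAcaattttggcccag
Rgs4, AP, chr1:169747675-169747704, minus strand: atctgattggctGCCGggtgcgtggctgag
H4c3, AP, chr13:23698595-23698624, plus strand: ttttcattggctAGCAagccccagctattc
Cenpk, AP, chr13:104229170-104229199, plus strand: acctgttttttcCCGAaaaagccgaggggc
Tmem260 encodes a protein O-mannosyltransferase, Dohh the deoxyhypusine hydroxylase that matures eIF5A, Kif1c a kinesin motor, Eif4a1 the RNA helicase of translation initiation, Rgs4 a regulator of G protein signalling, H4c3 a histone H4 and Cenpk a kinetochore protein. The distance of the position to the gene start was 32 bases at Tmem260, 183 at Dohh, 128 at Kif1c, 57 at Eif4a1, 50 at Ranbp3l, 128 at Arhgef10l, 202 at Gm2427, 47 at Rgs4, 152 at H4c3 and 203 at Cenpk, as the promoter table places the start. The annotated spans of Tmem260, Kif1c and Cenpk begin further upstream, so that these positions lay inside the gene span, and that at Gm2427 lay within the spans of other predicted genes. These 10 lines are the 5 positions per assay of highest count, then of most libraries, and the values over all positions in such windows come with the tests of the base.

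The share of positions with more than 1 count differed widely between the SSB libraries. It was 0.195% and 0.134% in the 2 bone marrow libraries, 0.177% and 0.253% in brain, 0.249% and 0.346% in liver, 0.541% and 0.511% in PBMCs, 0.822% and 0.611% in sperm, and 0.784% and 1.22% in heart. Heart, sperm and PBMC libraries were thus all above the bone marrow, brain and liver libraries, without overlap. The 95% Wilson interval of a share was 0.0239 to 0.0613 percentage points wide and covers counting error only. The 2 heart libraries differed by more than the gap between the highest liver and the lowest PBMC library. Heart replicate 2 alone held 12497 of the 30200 SSB entries, and it was also the deepest SSB library. Leaving it out ended no call among the 9 measures of place for SSBs or among the 3 SSB windows and 3 SSB genes called.

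The AP libraries were more alike. The share was 0.330% and 0.356% in bone marrow, 0.332% and 0.393% in brain, 0.348% and 0.485% in heart, 0.468% and 0.365% in PBMCs, 0.435% and 0.460% in sperm, and 0.922% and 0.491% in liver. The 2 liver libraries were the highest of the 12, with replicate 2 only just above heart replicate 2. Over 12 libraries the share averaged 0.449% ± 0.161 (SD, n = 12) for AP sites and 0.487% ± 0.330 (SD, n = 12) for SSBs.

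The share did not rise steadily with depth from library to library, although thinning the same libraries lowered its mean. Across the 12 SSB libraries the share and the number of positions had Pearson's r of 0.456 and Spearman's rho of 0.196, and r was -0.0879 without the 2 libraries farthest from the median depth. Across the 12 AP libraries r was -0.499 and rho -0.350, and r was 0.0260 without the 2 farthest. The SSB share and the AP share of the same tissue sample had r of -0.0151 and rho of 0.378 over 12 samples. These are descriptions over libraries that share tissues and animals, and a library with a high SSB share was not in general one with a high AP share.

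Thinning every library at random to 226459 reads, the sum of counts of the shallowest one, made the pattern by tissue plainer. The mean share fell from 0.487% to 0.270% for SSBs and from 0.449% to 0.154% for AP sites. The SSB share then was 0.0963% and 0.130% in bone marrow, 0.117% and 0.0934% in brain and 0.111% and 0.115% in liver. It was 0.401% and 0.267% in heart, 0.543% and 0.378% in PBMCs and 0.512% and 0.480% in sperm. Heart, PBMCs and sperm therefore stood above the other tissues at equal depth too, and the lead of heart over PBMCs and sperm seen at full depth was gone. Among AP libraries the liver shares were 0.424% and 0.250%, and the other 10 libraries lay between 0.0828% and 0.161%. Liver was thus among the lowest tissues for SSBs and the highest for AP sites. Bone marrow and PBMCs, which both hold blood cells, were far apart for SSBs.

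**Figure D1:**
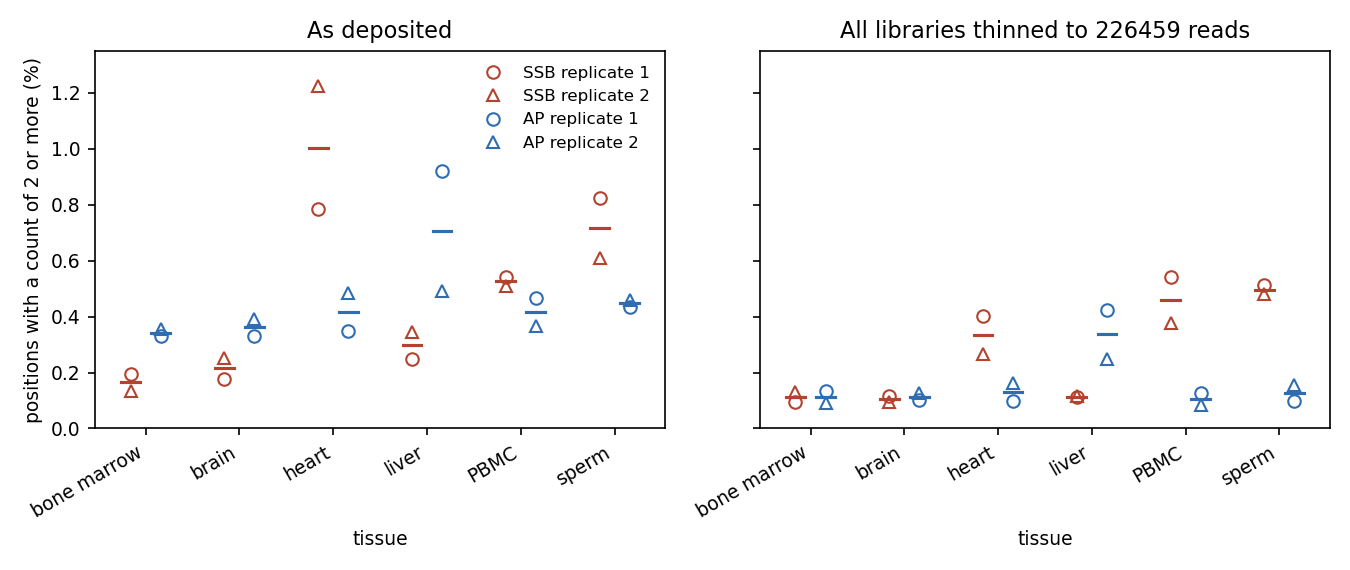
Share of autosomal positions found in 1 or 2 libraries of an assay that had a count of 2 or more (y axis, %), by tissue (x axis), for the files as deposited and after thinning to 226459 reads. Circles and triangles are replicates 1 and 2, and bars are the mean of 2. SSBs of heart, PBMCs and sperm and AP sites of liver lie above the other tissues after thinning.

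Nearly all chosen positions had the lowest count that the rule admits. Of the SSB entries found in 1 library, 29225 had a count of 2, 314 a count of 3 and 10 a count of 4 or more, and of the AP entries 35096, 218 and 4. The highest count was 5 for SSBs, at chr15:75086458 in heart replicate 2, and 4 for AP sites. The SSB nucleotide with 5 counts had 7 other listed positions of its library within 10 bp, and it lay in the 100 kb window of Ly6c1, a gene of the Ly6 family of surface proteins, which reappears among the windows tested. The AP positions with 4 counts included 1 in Sfi1 (chr11:3156753, sperm replicate 2) and 1 in the window of AY036118 (chr17:39845213, sperm replicate 1).

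The limit on the number of libraries left out few positions but those with the highest counts. A count of 2 or more was seen in 0.551% of SSB entries found in 1 library, 1.19% of those in 2, 6.69% of those in 3 and 28.9% of those in 4 or more. For AP sites these shares were 0.420%, 0.821%, 2.80% and 21.3%. Just outside the limit, in 3 libraries, there were 135 such SSB entries and 283 AP entries, with counts of at most 3. Beyond that, counts reached 88 for SSBs and 43 for AP sites.

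Chosen positions lay more often than single-count positions where the genome was dense in lesions. A window of 100 kb was called dense when it was among the top 10% by positions in the other 11 libraries of the assay. In SSB libraries 24.5% ± 3.35 of the chosen positions lay in such windows against 19.8% ± 1.48 of the single-count positions (SD, n = 12 libraries). The difference was 4.70 percentage points and positive in 12 of 12 libraries, from 2.00 to 9.03 (two-sided exact sign-flip test over 12 libraries, adjusted p = 0.000879 over 18 tests). No smaller unadjusted p than 0.000488 is possible. The corrections over measures count the share in a second library too, which is given below as a description only. In AP libraries the dense windows held 22.6% ± 1.16 against 19.4% ± 1.16, a difference of 3.15 points that was positive in 12 of 12 libraries (exact test, adjusted p = 0.000879). The chosen positions were nevertheless spread over the genome. Of the windows with any listed position, 63.7% held at least 1 chosen SSB position and 69.8% at least 1 chosen AP position, with a median of 1 per window in both assays.

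The same was seen at the scale of a few bases. Another listed position of the same library lay within 10 bp on the same strand for 4.80% ± 1.51 of the chosen SSB positions and 2.25% ± 1.27 of the single-count ones (n = 12). The difference of 2.56 points was positive in 12 of 12 libraries and ranged from 1.65 to 4.15 (exact sign-flip test, adjusted p = 0.000879). In bone marrow, 5.45% and 4.18% of the chosen SSB positions had such a neighbour against 1.30% and 0.803% of the single-count ones, and in heart replicate 2, where the level was highest, 8.75% against 5.35%. For AP sites the shares were 3.73% ± 0.809 and 2.34% ± 0.528, a difference of 1.39 points, again positive in 12 of 12 libraries (exact test, adjusted p = 0.000879). Paired by tissue sample, the SSB difference exceeded the AP difference by 1.17 points, in 12 of 12 samples (exact sign-flip test over 12 samples, adjusted p = 0.00439 over 9 tests).

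Most of these neighbours were the adjacent nucleotide. The nearest position on the same strand was 1 bp away for 2.74% ± 1.41 of the chosen SSB positions and 1.26% ± 0.837 of the single-count ones. It was 2 bp away for 0.557% and 0.336%, and 20 bp away for 0.0555% and 0.0564%. For AP sites the shares at 1 bp were 2.12% ± 0.775 and 1.25% ± 0.460, and at 20 bp 0.115% and 0.0870%. The excess of chosen positions at 1 bp was seen in 12 of 12 libraries of each assay, whereas at 20 bp it was seen in 4 SSB and 9 AP libraries.

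**Figure D2:**
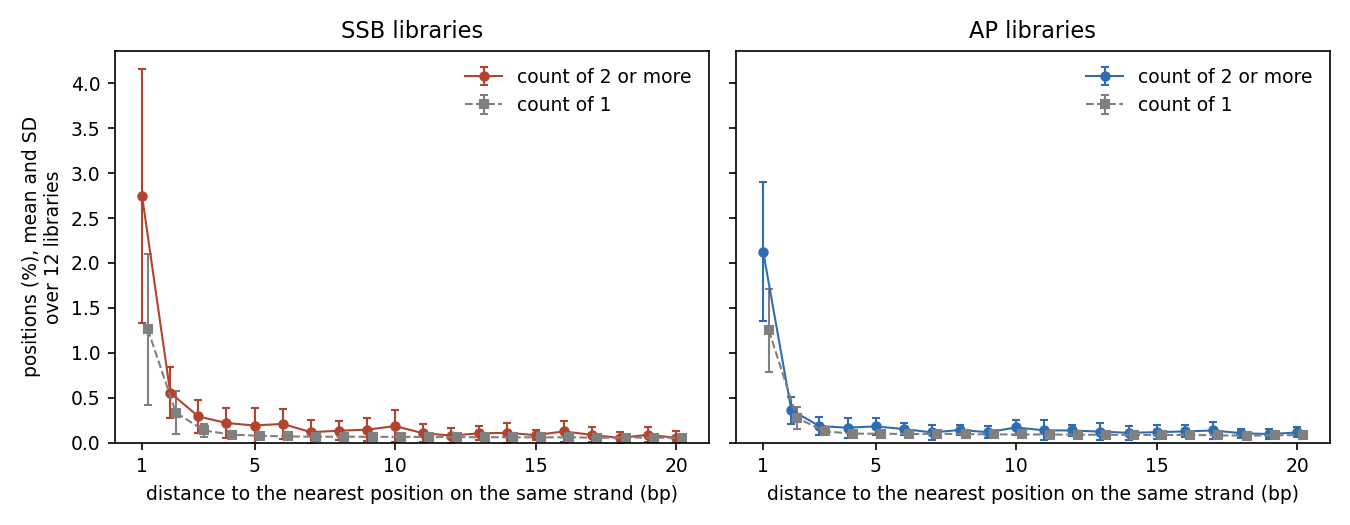
Share of positions (y axis, %) whose nearest listed position on the same strand of the same library lay at each distance (x axis, bp), for positions with a count of 2 or more and of 1. Points are means and bars SDs over 12 libraries; at 1 bp the means are 2.74% and 1.26% for SSBs and 2.12% and 1.25% for AP sites.

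Positions on the opposite strand and positions of the other assay were also found nearby more often, though not detectably outside the densest windows. An opposite-strand position within 10 bp was found for 1.21% of chosen and 0.487% of single-count SSB positions (11 of 12 libraries higher, exact sign-flip test, adjusted p = 0.00338), and for 1.43% and 0.937% in AP libraries (11 of 12, exact test, adjusted p = 0.00160). A position of the other assay from the same tissue sample lay within 10 bp of 3.26% of chosen and 1.90% of single-count SSB positions, and of 1.81% and 1.18% of AP positions (12 of 12 libraries each, exact test, adjusted p = 0.000879 for both). Without the densest 1% of windows the opposite-strand differences were 0.0585 points for SSBs and 0.0689 for AP sites, and the differences for the other assay 0.261 and 0.152, and none of the 4 passed the test (exact test, adjusted p = 0.276, 0.162, 0.102 and 0.137). The differences for dense windows and same-strand neighbours were smaller without those windows but still passed, with 3.05 and 1.55 points for SSBs and 1.71 and 0.883 for AP sites (exact test, adjusted p = 0.00146 for each).

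The number of libraries is a value the rule itself limits to 1 or 2, so the share of positions listed in a second library is a description only. It was 2.81% ± 1.25 for chosen and 1.02% ± 0.0944 for single-count SSB positions, and 5.36% ± 0.949 and 2.77% ± 0.177 for AP positions, higher for the chosen ones in 12 of 12 libraries of each assay. SSBs of bone marrow stood highest, with 4.66% and 5.79% of the chosen positions in a second library, and heart replicate 2 lowest, with 1.71%. Of the 639 SSB nucleotides that had a count above 1 in at least 1 of their 2 libraries, 13.9% had both libraries from the same tissue, against 11.01% of those with a count of 1 in both. For the 1973 such AP nucleotides it was 10.1% against 9.29%. A count above 1 in both libraries was rare, with 12 SSB nucleotides, 7 of them in the 2 libraries of a tissue, and 19 AP nucleotides, none of them in the same tissue. These pairs are given without a test.

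Chosen positions fell slightly more often within genes. Gene spans of RefSeq held 63.0% ± 1.60 of chosen and 61.5% ± 0.991 of single-count SSB positions (10 of 12 libraries higher, exact sign-flip test, adjusted p = 0.00293), and 63.4% ± 1.41 and 61.6% ± 0.746 of AP positions (12 of 12, exact test, adjusted p = 0.000879). At equal depth these differences were 1.43 and 1.36 points and did not pass the test (exact test, adjusted p = 0.149 and 0.236). Where the strand of the gene was known, the template strand held 45.1% of chosen and 46.0% of single-count SSB positions, and 49.2% and 49.6% of AP positions, and neither difference passed the test (exact test, adjusted p = 0.320 and 0.218). Over all libraries the template strand was thus not seen to differ between the classes, with differences of -0.851 ± 2.72 points and -0.452 ± 1.10 points (SD, n = 12). The SSB mean joins tissues of opposite sign. The difference was 3.73 ± 0.266 points in brain, -3.86 ± 1.98 in bone marrow and -3.32 ± 1.02 in PBMCs (SD, n = 2 each). Liver, heart and sperm had -0.831, -0.636 and -0.188 points. Whether tissues differ in this measure was not tested.

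Chosen SSB positions were in excess near gene starts. Within 1 kb of a gene start lay 5.72% ± 1.92 of chosen and 4.44% ± 0.691 of single-count SSB positions, higher in 12 of 12 libraries (exact sign-flip test, adjusted p = 0.000879). The bone marrow libraries had the highest levels, 10.7% and 8.04% of the chosen positions against 5.95% and 5.29% of the single-count ones, and the sperm libraries were among the lowest, with 4.41% and 4.12% against 3.68% and 3.67%. In AP libraries it was 3.74% ± 0.382 against 3.57% ± 0.219, a difference of 0.172 points that did not pass the test (9 of 12 libraries higher, exact test, adjusted p = 0.207). The SSB difference exceeded the AP difference by 1.11 points, in 9 of 12 tissue samples (exact sign-flip test, adjusted p = 0.0220), but at equal depth by 0.915 points, which did not pass (exact test, adjusted p = 0.661). Within 10 kb of a gene start both assays passed, with differences of 2.39 points for SSBs and 1.22 for AP sites (exact test, adjusted p = 0.000732 and 0.00126). At equal depth the difference within 1 kb was 0.843 points for SSBs and -0.0713 for AP sites, neither past the test (exact test, adjusted p = 0.0559 and 0.837). Among the few SSB positions with a count of 3 or more, the difference was -0.214 points at gene starts and -6.60 in gene spans, also short of the threshold (exact test over 11 libraries, adjusted p = 0.983 and 0.601). Within 1 kb of a gene end the classes were close, with 3.58% and 3.38% for SSBs and 3.34% for both classes of AP positions (exact test, adjusted p = 0.320 and 0.984).

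**Figure D3:**
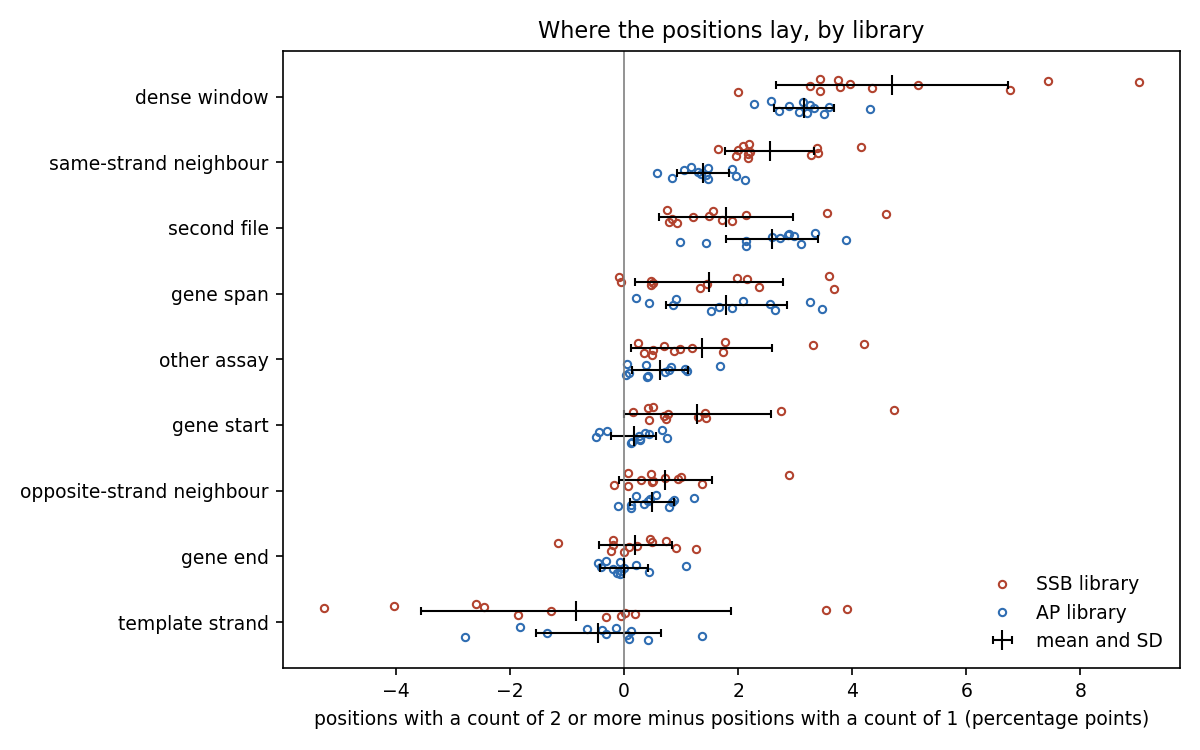
Share of positions with a count of 2 or more minus share of positions with a count of 1 (x axis, percentage points) for 9 measures of place (y axis). Each circle is a library, and bars are the mean and SD over 12 libraries of an assay. Dense window, same-strand neighbour, other assay and second file (listed in a second library, a description only) lie above 0 in all 12 libraries of both assays.

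The bases around the position could be read only where the reference table holds sequence, from 250 bases before to 50 after a gene start. This covered 401 chosen SSB positions (1.33% of them) and 255 chosen AP positions (0.683%), against 53137 and 56620 single-count ones. For AP sites a C stood 2 bases before the listed nucleotide at 65.9% of chosen and 53.1% of single-count positions, a mean difference over libraries of 13.7 points that was positive in 12 of 12 (exact sign-flip test, adjusted p = 0.0215 over 88 tests of base and offset, a family added once results were known). A G at that place was less frequent, 29.0% against 36.4% (higher in 1 of 12 libraries, exact test, adjusted p = 0.0286). This base is the second capital of each AP line printed above.

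For SSBs the listed nucleotide was an A at 2.24% of chosen and 5.64% of single-count positions in these windows, lower in 12 of 12 libraries (exact sign-flip test, adjusted p = 0.0215). A C stood just before it at 69.8% and 55.3%, higher in 11 of 12 libraries, which did not pass the correction (exact test, adjusted p = 0.0552). Heart replicate 2 gave 164 of the 401 positions, and without it the difference for C was 13.9 points and that for A -3.83 points. Single libraries held as few as 4 chosen SSB positions in these windows, so that their shares are coarse. At 3 to 5 bases after the position a C was found at 31.4%, 33.7% and 35.2% of chosen and 29.5%, 30.8% and 31.4% of single-count SSB positions, with no test passed.

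The next question was whether particular windows or genes held more chosen positions than their single-count positions would give. Each 100 kb window and each gene with at least 100 positions was tested with edgeR's quasi-likelihood test within libraries, and the log2 fold compares its share of all chosen positions with its share of all single-count positions. This takes chosen positions as proportional to single-count positions, and whether they rise more steeply with local density was not tested. More chosen positions were found in 3 of 20436 SSB windows (0.0147%) and 3 of 8431 SSB genes (0.0356%), and in 9 of 22656 AP windows (0.0397%) and 10 of 12242 AP genes (0.0817%), at an adjusted p under 0.05. None was called with fewer. An unadjusted p under 0.05 (edgeR, either direction) was found for 709 of 20436 SSB windows and 341 of 8431 SSB genes. The same held for 1129 of 22656 AP windows and 449 of 12242 AP genes. Each of these shares is below 0.05, the share that such a cutoff passes where nothing differs. With a median of 1 chosen position per window, most windows could not show a difference at this depth. The direction depends on the scaling: with TMM or DESeq2 size factors the median log2 fold of all SSB windows was -3.06 and -1.94, against -0.20 with the totals of each class, and nearly all calls were then for fewer chosen positions. With more chosen positions, TMM and DESeq2 each called 0 SSB windows, 0 SSB genes and 1 AP window, and 4 and 0 AP genes. Relative to those medians, the 3 called SSB windows lay 1.95 to 3.11 higher with TMM and 0.75 to 1.79 higher with DESeq2. The 9 called AP windows lay 1.88 to 3.65 and 0.66 to 2.43 higher. These windows were picked in the same counts, so their place above the median gives no support for the calls. As the scaling sets the direction, the folds given for genes and windows are relative to all positions of a class.

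Sfi1 held the most chosen positions of any gene and had the smallest p in both assays, although other called genes had higher folds. Sfi1, which encodes a centrin-binding protein of the centrosome (chr11:3131850-3203347), held 158 chosen and 5919 single-count SSB positions, so that 2.60% of its positions were chosen against 0.558% of all. In the 12 SSB libraries the share in Sfi1 was 1.04% at the lowest, 2.06% at the median and 4.86% at the highest, in heart replicate 2 (log2 fold 2.35, edgeR adjusted p = 8.11e-09). For AP sites it held 296 and 8141 positions, with 3.51% chosen against 0.431% of all, and 2.12%, 3.08% and 5.22% at the lowest, median and highest library (log2 fold 3.05, edgeR adjusted p = 5.43e-90). All 12 libraries of each assay had chosen positions there, and in each assay the median share in Sfi1 was above the share of every whole library.

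Neighbouring genes of the same window followed. Pisd-ps1, a transcribed pseudogene of a phosphatidylserine decarboxylase next to Sfi1, held 20 chosen SSB positions (2.32%, log2 fold 2.20, edgeR adjusted p = 0.00112) and 41 chosen AP positions (3.67%, log2 fold 3.16, edgeR adjusted p = 4.89e-21). Gm11400 and Fau-ps2, pseudogenes that lie within Sfi1 and share its positions, were called for AP sites only, with 22 and 8 chosen positions (log2 folds 3.49 and 4.24), and the difference between assays was not tested for them. Fau-ps2 had 93 single-count positions and reached the minimum of 100 positions only through its chosen ones, so its call is no support for an excess there. Without any single one of the 12 AP libraries it fell below that minimum and was not tested. The 100 kb window chr11:3100001-3200000 held 180 of all chosen SSB positions and 336 of the AP ones, the most of any window in both assays. At equal depth the SSB call of Pisd-ps1 and the AP call of Gm11400 were lost. With a count of 3 or more, Pisd-ps1 was called in neither assay, and the SSB calls of Sfi1 and of this window were lost. How the authors placed reads that map to several copies is not given in the sources used here, so the values of pseudogenes and of their parent copies are uncertain.

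The window chr17:39800001-39900000, which holds the lncRNA AY036118 and Rn18s-rs5, a pseudogene annotated as related to 18S ribosomal RNA, had the highest ratio among called windows. It held 156 chosen and 2606 single-count SSB positions (5.65% chosen; log2 fold 3.63, edgeR adjusted p = 6.56e-07). The share was 10.0% and 3.06% in bone marrow, 3.54% and 9.02% in liver, 5.83% and 6.60% in heart, 2.63% and 4.47% in brain, 1.41% and 2.22% in PBMCs and 1.79% and 2.02% in sperm. The order of tissues in this window was thus not that of whole libraries, where sperm and PBMCs were high and bone marrow low. For AP sites it held 91 and 1826 positions (4.75%; log2 fold 3.58, edgeR adjusted p = 5.41e-43), with chosen positions in 11 of 12 libraries and a highest share of 9.64% in bone marrow replicate 1. The gene AY036118 itself passed for SSBs, with 19 chosen positions (log2 fold 3.14, edgeR adjusted p = 0.00453), but not for AP sites, with 7 (log2 fold 2.58, edgeR adjusted p = 0.194). Its SSB call was lost without liver replicate 2 (log2 fold 2.92, edgeR adjusted p = 0.0875), with a count of 3 or more and with no minimum of positions. Rn18s-rs5 held no chosen position and 1 single-count AP position, so the chosen positions of this window lay outside that pseudogene, and most lay outside AY036118 too.

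The remaining called windows were smaller. The window chr15:75000001-75100000 of Ly6c1 held 20 chosen SSB positions (4.50%; log2 fold 2.98, edgeR adjusted p = 9.47e-05), found in 7 of 12 libraries, and 11 chosen AP positions (2.56%; log2 fold 2.59, edgeR adjusted p = 0.0124), also in 7. The AP call of this window was lost without heart replicate 1, PBMC replicate 1 or PBMC replicate 2 (edgeR adjusted p = 0.224, 0.633 and 0.189). With a count of 3 or more the window was called in neither assay. On chromosome 1 the AP calls formed a cluster around the Sp100 family, whose proteins belong to nuclear bodies and are induced by interferon. Sp140 (chr1:85587491-85645040) held 34 chosen AP positions (2.25%; lowest, median and highest library 1.0%, 1.92% and 4.62%; log2 fold 2.41, edgeR adjusted p = 1.95e-10), and Sp110, which overlaps it, 26 (log2 fold 2.39). C130026I21Rik and Gm38510, which overlap each other nearby, held 33 and 44 (log2 folds 2.31 and 1.96). Each of these 4 genes had chosen positions in 12 of 12 AP libraries, but none was called at equal depth or with a count of 3 or more.

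A second group on chromosome 1 held Hjurp, the chaperone of the centromeric histone CENP-A, and Mroh2a beside the Ugt1a genes. Its window, chr1:88200001-88300000, had 52 chosen AP positions (1.42%; log2 fold 1.73, edgeR adjusted p = 0.00132), with 25 in Mroh2a (log2 fold 1.77) and 15 in Hjurp (log2 fold 1.88, edgeR adjusted p = 0.0412). The window was not called without bone marrow replicate 2 or PBMC replicate 1 (edgeR adjusted p = 0.0845 and 0.101), nor was Mroh2a without bone marrow replicate 2 (edgeR adjusted p = 0.0883). The window, Mroh2a and Hjurp were also not called at equal depth or with a count of 3 or more. The same window was among the 5 with most chosen SSB positions, with 18, but was not called there (log2 fold 0.60, edgeR adjusted p = 0.674). Hjurp was called in 7 of the 17 alternatives that kept the scaling, fewer than any other called gene but Fau-ps2. That pseudogene was called in 2 and not tested in the others. Hjurp lost the call without any of 7 single libraries (bone marrow replicates 1 and 2, brain 1, heart 1, PBMC 1 and 2, sperm 2, with edgeR adjusted p from 0.0549 to 0.454). The 5 windows with most chosen SSB positions also included chr4:46800001-46900000, which holds Gabbr2, a subunit of the GABA-B receptor, with 11 (log2 fold 2.14, edgeR adjusted p = 0.554, not called). The last 2 called AP windows held only predicted genes and vomeronasal receptor pseudogenes, with 18 and 10 chosen positions, and neither was called at equal depth or with a count of 3 or more. The second of these was not called without brain replicate 1 or heart replicate 1 (edgeR adjusted p = 0.131 and 0.417). Around the Sp100 family, the window chr1:85500001-85600000 was not called without PBMC replicate 2 (edgeR adjusted p = 0.0958). Its neighbour chr1:85600001-85700000 was not called without any of 5 libraries (bone marrow 2, brain 1, heart 1, PBMC 1 and sperm 1, with edgeR adjusted p from 0.0845 to 0.754). These windows and the called AP window chr1:85200001-85300000 were not called at equal depth or with a count of 3 or more.

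**Figure D4:**
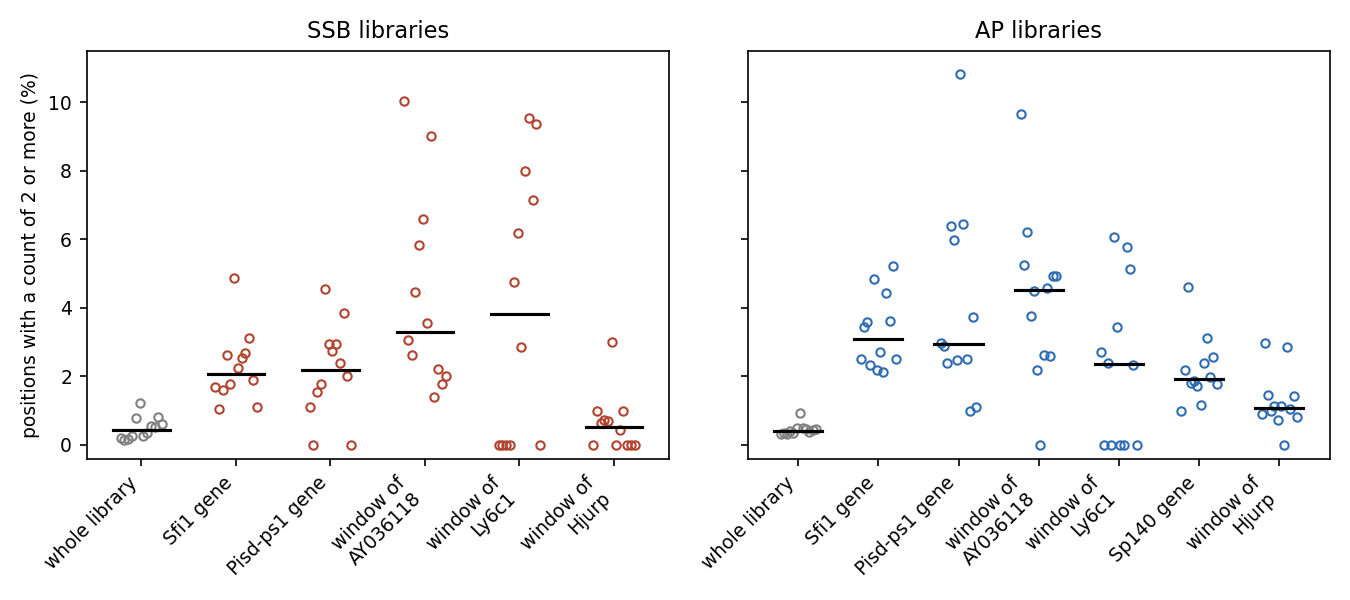
Share of positions with a count of 2 or more (y axis, %) in each of the 12 libraries of an assay (circles), for the whole library and for named genes and 100 kb windows (x axis); bars are medians over libraries. In Sfi1 the median is 2.06% for SSBs and 3.08% for AP sites, above every whole-library share.

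Long genes held many chosen positions. Beside Sfi1, the genes with most chosen SSB positions included Sox5, a transcription factor of cartilage and neurons, with 25, Nav2, a cytoskeletal regulator of neurite growth, with 23, and Auts2 with 22. Their log2 folds were 0.52, 0.51 and 0.31, and none passed (edgeR adjusted p from 0.639 to 0.716). Cdh13, an atypical cadherin, held 34 chosen AP positions (log2 fold 0.24, edgeR adjusted p = 0.760). In a list of 30 very long genes, among them Lsamp, Csmd1, Nrxn3 and Fhit, 390 SSB positions (0.475%) and 510 AP positions (0.378%) were chosen, against 0.558% and 0.431% of all autosomal positions. None of the 30 was called in either assay, where 0.0356% (SSBs) and 0.0817% (AP sites) of all genes were called, so the count says nothing about them. Their median log2 fold was -0.28 for SSBs and -0.16 for AP sites, against -0.08 and -0.17 for all genes tested.

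Ribosomal protein genes, which are short and highly expressed, had too few positions for most tests. Of 91 such genes on autosomes, 6 had enough positions for the SSB test and 7 for the AP test, and none passed, as for nearly all genes at 0.0356% and 0.0817% called. They held 19 chosen SSB positions (0.484%) and 29 chosen AP positions (0.487%), near the shares of all positions. A small difference was not detectable at this depth.

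By tissue, the SSB excess in dense windows, at same-strand neighbours and near positions of the other assay had its highest mean in bone marrow, while the excess in gene spans was highest in sperm (2.51 ± 1.66 points, against 2.07 ± 0.118 in bone marrow; SD, n = 2 each). The excess in dense windows was 8.23 ± 1.13 points in bone marrow, 5.56 ± 1.72 in liver, 4.55 ± 0.846 in brain, 3.60 ± 0.228 in PBMCs, 3.53 ± 0.373 in heart and 2.72 ± 1.01 in sperm. In bone marrow replicate 1 (7.43 points), the window of AY036118 alone held 36 of 880 chosen and 323 of 449882 single-count SSB positions. In bone marrow replicate 2 (9.03 points) it held 6 of 311 and 190 of 231244. Whether bone marrow stays highest without this window was not tested. For AP sites the excess near positions of the other assay was 1.25 ± 0.601 points in bone marrow and 0.0593 ± 0.0348 in liver. In an exact test over all 10395 ways to pair the 12 libraries, no measure passed in either assay after correction over 10 tests (exact test, adjusted p = 0.0649 for SSB dense windows). With the replicate number as a block, SSB dense windows and AP positions near the other assay passed (exact test over 720 pairings, adjusted p = 0.0417 for both). Libraries hold far fewer chosen positions at equal depth. There the mean squared difference between libraries of different tissues was 1.38 times that within tissues for SSB dense windows, against 4.34 at full depth.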

How the data were processed

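The authors deposited, for each of 24 libraries, the single-nucleotide positions of SSBs or AP sites with their strand and a raw count per position, without normalization or pooling. The submitters' processing notes name the builds mm10 and GRCm38; aligner, filters, duplicate and multi-mapped reads are not given in the sources used here. Genes, gene starts and sequence came from RefSeq (GRCm38.p6, 47042 autosomal genes, 26728 with a known strand). The RNA profiles were not analysed here.

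Shares of chosen positions were compared with those of single-count positions within each library, by exact sign-flip tests over 12 libraries (4096 sign patterns) and Benjamini-Hochberg adjustment. For windows and genes the quasi-likelihood test of edgeR 4.0.16 in R 4.3.3 was used, with the library as a block, the totals of each class as library size and at least 100 positions. DESeq2 1.42.0, TMM, thinning, other thresholds, other distances and leaving out each library were alternatives. The sign-flip test, the test over all pairings and the edgeR test were tried on simulated data, for edgeR with Poisson counts. The pairing test with a replicate block and DESeq2 were not. Shares and exact tests were computed in Python 3.11.15 (scipy 1.17.1, numpy 2.4.6, pandas 2.3.3), and plots were drawn with matplotlib 3.10.9. Groups came from the labels, and each tissue has 2 replicates. Depth was 225011 to 1041983 positions per library. Share intervals are 95% Wilson intervals.

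The members and gene lists were chosen with earlier results of these data known. Named were, per assay, the 5 genes and windows with most chosen positions, the 5 of smallest p past the threshold, the positions of highest count and 3 gene lists; other called features were named after their values were seen. The sequences shown are those of highest count, then most libraries, before the promoter table's start of a protein-coding gene. A gene that the naming rule covers is not reported here.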

Additional observations from a re-analysis of the deposited data

Results flagged for a closer look

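The excess of chosen positions over single-count positions differed between the assays in 2 measures, by an exact sign-flip test over the 12 tissue samples of the SSB value minus the AP value. Near gene starts the SSB excess was larger by 1.11 percentage points, in 9 of 12 samples (adjusted p = 0.0220), and bone marrow gave the widest gaps. After thinning to equal depth the gap was 0.915 points and no longer passed the exact test (adjusted p = 0.661). For a same-strand neighbour within 10 bp the SSB excess was larger by 1.17 points, in 12 of 12 samples (exact test, adjusted p = 0.00439).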

How the results depend on the processing

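Of the alternative values computed, 483 kept direction and side of the threshold or, for counts, stayed within 1.5 times. The others were as follows, as percentage points of chosen minus single-count positions unless another unit is named, and where no value is given for a cause, it was not tested. With a count of 3 or more (343 SSB and 257 AP entries) SSB gene span was -6.60, gene start -0.214 and gene end -0.133, and opposite-strand neighbour (SSB 2.42, AP 7.24) and SSB other assay (10.4) missed the threshold. The SSB and AP median shares were then 0.00270% and 0.00274%, and thinned 0.199% and 0.128%, against 0.428% and 0.414%. With any number of libraries SSB gene span was 0.432. Thinned, gene span was 1.43 (SSB) and 1.36 (AP), and gene start 0.843 and -0.0713. Without the densest 1% of windows, opposite-strand neighbour was 0.0585 (SSB) and 0.0689 (AP), other assay 0.261 and 0.152, and AP gene end -0.00188. Within 10 kb, SSB gene end (2.99), AP gene start (1.22) and AP gene end (1.65) passed. Of the SSB minus AP values, thinning gave 0.0617 for gene span, 0.915 for gene start, -0.0402 for opposite-strand neighbour, -0.269 for other assay, 0.111 for second library and 0.904 for template strand. The ratio of mean squared difference between to within tissues fell below or rose above 1 on thinning for AP dense window (0.733) and AP same-strand neighbour (1.02).

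Leaving out 1 library gave -0.0947 to 0.0457 for AP gene end, which was near 0 throughout. Leaving out 1 tissue sample gave -0.879 to 0.00749 for SSB minus AP template strand (above 0 only without bone marrow replicate 2), 0.105 to 0.417 for gene end (past the threshold only without brain replicate 1) and 1.16 to 1.82 for dense window (only without sperm replicate 2).

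Windows and genes called changed with the setting. TMM and DESeq2 called 19708 and 17660 SSB windows, 6647 and 5284 SSB genes, 20689 and 17694 AP windows and 9205 and 7499 AP genes, nearly all with fewer chosen positions, as both shift the median fold. With any number of libraries 14 SSB windows, 7 SSB genes, 21 AP windows and 21 AP genes were called, with a count of 3 or more 1, 0, 2 and 2, and thinned 5 SSB windows, 3 AP windows and 2 AP genes. The 0 comes from edgeR, with 123 of 7828 SSB genes at an unadjusted p under 0.05. Protein-coding genes alone gave 1 SSB gene and windows of 1 Mb 4 AP windows. Leaving out 1 library gave 3 to 4 SSB windows, 2 to 3 SSB genes, 6 to 9 AP windows and 8 to 11 AP genes.

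The labels do not say that a replicate number marks the same mouse across tissues, and the data did not settle it: 4 of 15 SSB and 7 of 15 AP tissue pairs had a correlation of their deviations above 0.1. With a replicate block, the ratio of mean squared difference between to within tissues was 5.82 for SSB dense window and 3.67 for AP other assay. Both passed (exact test over 720 pairings, adjusted p = 0.0417 for both), and the other by-tissue results stayed short of the threshold.

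Depth limits single windows and genes most. A window held a median of 1 chosen position in each assay, and 669 SSB and 1194 AP windows held 5 or more. Missing gene strands limit the template result, as 56.8% of autosomal genes had a strand.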
